A study of Saccharomyces cerevisiae with 24 samples.

Results

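The genes described here encode the enzymes and factors that carry out cytosolic protein synthesis in budding yeast, apart from the ribosome itself. They were chosen by function from a list of systematic names: 20 genes for cytosolic aminoacyl-tRNA synthetases, 8 for elongation factors and 12 for initiation factors, 40 of the 7032 features counted in the series. All 40 passed the filter on low counts and were among the 6402 genes tested, and the lowest count of any member in any library was 1488. RNA was measured in a diploid wild-type strain, BY4743, grown in rich YPD medium. Centrifugal elutriation, which separates cells by size, yielded small G1 cells, and these were returned to culture until they had grown to a chosen size, stopped with cycloheximide and sodium azide, and frozen. Frozen cells of similar size were combined, and each of the 24 pools gave 1 library of total RNA after removal of rRNA. Measured sizes ran from 39.1 to 75.9 fL, and the libraries formed 8 size groups of 3 biological replicates, at 40, 45, 50, 55, 60, 65, 70 and 75 fL. All groups shared strain, medium and treatment and differed in size, so size cannot be told apart from time in culture after elutriation or from position in the division cycle.

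Aminoacyl-tRNA synthetases each join an amino acid to its tRNAs, and so supply the ribosome with charged tRNA. Initiation factors bring the initiator tRNA, the mRNA and the small ribosomal subunit together. The elongation factor eEF1A then delivers charged tRNA to the ribosome, the eEF1B complex recharges eEF1A with GTP, eEF2 moves the ribosome along the mRNA, and the fungal factor eEF3 acts at each cycle. In yeast, eEF1A, eEF2, the gamma subunit of eEF1B and the helicase eIF4A are each encoded by a pair of genes. Gcn4, a transcription factor, activates genes of amino acid synthesis and some synthetase genes when amino acids are scarce.

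Promoter sequences were read from the R64 genome (RefSeq), 250 bases before to 50 bases after each start codon, and 3 short words were searched on both strands. The word TGACTC, the core of the motif bound by Gcn4, was in the window of 8 of the 20 synthetase genes, 0 of the 8 elongation factor genes and 0 of the 12 initiation factor genes. It was in 7.96% of all 6021 promoters. The 8 synthetase windows are shown because they mark the members that carry this word. They are written 5′ to 3′ on the strand of the gene with the word in capitals, which reads GAGTCA where it lies on the other strand. In GLN4, which encodes the glutaminyl enzyme, it lies inside the coding sequence.
ALA1, chrXV:949141-949166, - strand: ttaaggaactTGACTCtttctttcaa
YDR341C, chrIV:1153811-1153836, - strand: agtgtctaatGAGTCAgttatttctt
CRS1, chrXIV:182779-182804, + strand: tcatcgcgaaGAGTCAaaagacatta
GLN4, chrXV:649312-649337, + strand: gtagaagaatTGACTCagctgttttc
ILS1, chrII:84348-84373, - strand: gaaacaatgaTGACTCttaagcatga
KRS1, chrIV:525296-525321, + strand: aatgatgaaaTGACTCttaatgaact
THS1, chrIX:212285-212310, + strand: actgtttaaaTGACTCttaccttgtg
VAS1, chrVII:672078-672103, + strand: ttttttagaaGAGTCAcccatacagc

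The word AAAATTTT, the core of the rRNA processing element found at ribosome biogenesis genes, was in 9.00% of all promoters. It was present in 28 of the 40 members: 12 of 20 synthetase genes, 6 of 8 elongation factor genes and 10 of 12 initiation factor genes. The windows of the eIF2 subunit genes (SUI2, SUI3 and GCD11) and of 3 eIF3 subunit genes (NIP1, PRT1 and RPG1) are shown because these genes changed together with cell size, as described further on. Capitals mark the word, and in PRT1 it lies just inside the coding sequence.
SUI2, chrX:450798-450825, + strand: cagtcggagaAAAATTTTttcttcgaag
SUI3, chrXVI:100339-100366, + strand: gacggagtgaAAAATTTTgtaattgcga
GCD11, chrV:205106-205133, + strand: tgccattgaaAAAATTTTcatagaatag
NIP1, chrXIII:895570-895597, - strand: tcgccgttgaAAAATTTTtcaatgagaa
PRT1, chrXV:1017631-1017658, - strand: aaactaatgaAAAATTTTcttccacgca
RPG1, chrII:398356-398383, - strand: tgccaggtgaAAAATTTTtcttggtgaa

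A further initiation gene, TIF34, which encodes another eIF3 subunit, did not hold this word in the window. The third word, GATGAG, the core of the PAC element, was in 20.3% of all promoters, and in 7 of 20 synthetase, 1 of 8 elongation and 2 of 12 initiation genes. A match describes the letters in the window and shows neither binding nor a cause.

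The genes were first ranked by level on the deposited TPM scale, which corrects for coding length and allows genes to be compared. TEF1, 1 of the genes for eEF1A, had the highest mean TPM of the 40, 11208 over the 24 libraries, and ranked 2 among all 7032 features. The other eEF1A gene, TEF2, followed with 5521 TPM, then YEF3 (eEF3) with 2893, EFT2 (eEF2) with 2427 and EFB1 (eEF1B alpha, the nucleotide exchange subunit) with 2087. The highest initiation factor gene was TIF1 (eIF4A) with 1203 TPM, and the highest synthetase gene was SES1 (seryl-tRNA synthetase) with 527 TPM. CRS1, for the cysteinyl enzyme, was the lowest member with 166 TPM, and the means of the other synthetase genes lay between those of CRS1 and SES1. CAM1, a gene for eEF1B gamma, was the lowest elongation factor gene with 339 TPM, and SUI3, for the beta subunit of eIF2, the lowest initiation factor gene with 171 TPM.

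The 40 genes together held 3.98% ± 0.134 of the TPM of a library at 40 fL, 3.40% ± 0.219 at 50 fL, 3.76% ± 0.186 at 60 fL and 4.03% ± 0.232 at 75 fL (SD, n = 3). As a share of counts, the sum was 6.34% ± 0.123 at 40 fL and 7.06% ± 0.432 at 75 fL. The classes differed in how their shares varied. Elongation factor genes held 2.37% ± 0.0653 at 40 fL and 2.89% ± 0.184 at 75 fL, and the eEF1A pair alone held 1.40% ± 0.0976 and 1.89% ± 0.107. Initiation factor genes held 0.822% ± 0.0746 at 40 fL, 0.432% ± 0.0137 at 60 fL and 0.489% ± 0.0186 at 75 fL. Synthetase genes held 0.784% ± 0.0629 at 40 fL, 0.536% ± 0.0608 at 50 fL and 0.654% ± 0.0308 at 75 fL. These are shares of RNA and not amounts per cell.

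**Figure D1:**
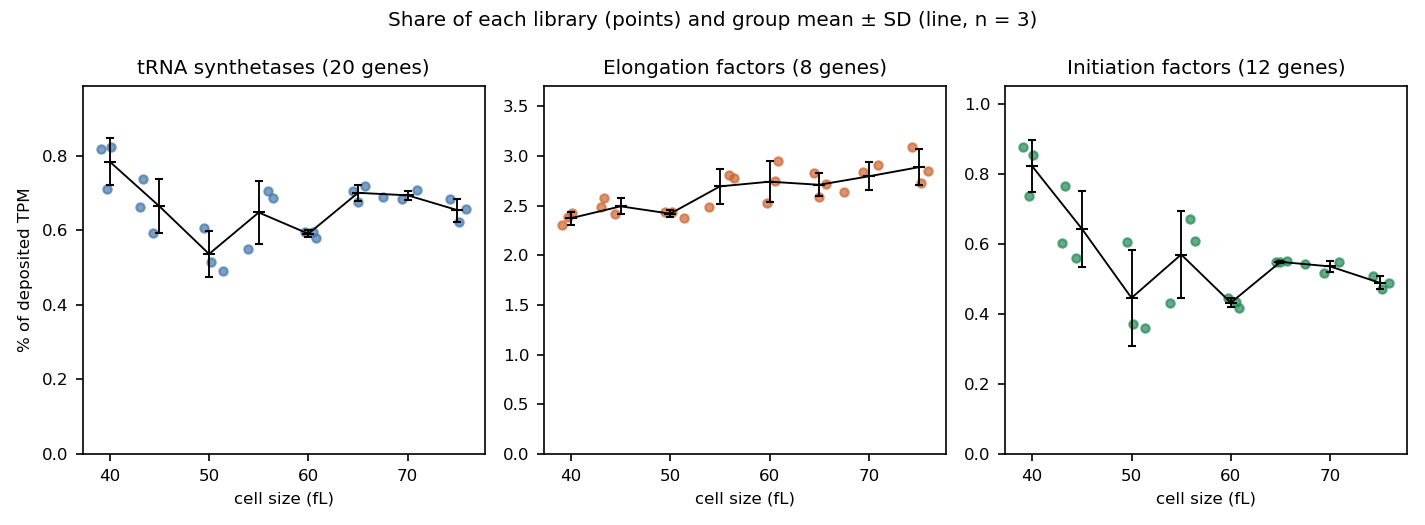
Share of deposited TPM held by each class (y axis, percent, from 0) against cell size (x axis, fL). Points are the 24 libraries at their measured size and lines join group means ± SD (n = 3); the elongation factor share rises from 2.37% at 40 fL to 2.89% at 75 fL, and the initiation factor share is highest at 40 fL, at 0.822%.

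Total counts per library ran from 16103753 to 24408547. The strain's markers URA3 and LEU2 had 0 counts in 24 of 24 libraries, HIS3 had 324 to 983, and 7 haploid-specific genes had 21 to 826 counts per library. Of these 7 genes, 6 fell from 40 to 75 fL under TMM scaling, where 30.2% of all genes fell. On the TPM scale 6 fell as well, where 3524 of all 6402 genes did. The median log2 change of the 7 was -1.24 under TMM scaling, -1.51 on the TPM scale and -1.22 without the 5 libraries named next. The part of this change in the results below was not tested. In 5 libraries the mean distance to the replicate mates exceeded that between the mates by a factor of 1.3 or more: replicate 1 at 40 fL, replicate 3 at 45 fL, replicate 2 at both 50 and 55 fL, and replicate 1 at 70 fL. They were picked from these same data, so leaving them out narrows the spread between replicates. Calls made without them can therefore be too many. Log2 changes below are from edgeR with TMM scaling, under which the median change of all tested genes from 40 to 75 fL was -0.0083. It was -0.28 when counts were scaled by library totals alone and -0.42 on the deposited TPM scale, so the direction of a small change depends on the scaling. Relative to that median, class medians hardly moved: the synthetases stood at 0.10, 0.10 and 0.077 under the 3 scalings, the elongation factors at 0.81, 0.81 and 0.78, and the initiation factors at -0.54, -0.54 and -0.56.

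Over the 8 sizes together, 37 of the 40 genes changed at an adjusted p under 0.05 (edgeR quasi-likelihood F test), where 79.6% of all genes tested did. The exceptions were DPS1 (aspartyl enzyme, adjusted p = 0.759 in edgeR), FRS2 (alpha subunit of the phenylalanyl enzyme, adjusted p = 0.199) and TIF2 (eIF4A, adjusted p = 0.0539). The count was 29 without 50 fL replicate 1, between 37 and 39 with other tools, scalings and filters, 35 with near-identical copies summed and 40 without the 5 libraries that stood apart. The difference between the highest and lowest group mean had a median of 0.563 on the log2 scale over the members and 0.795 over all genes tested. The members and all genes were not matched for level, so this gap cannot show that the members moved less.

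On the scale of TMM-scaled CPM, the classes had their highest and lowest means at different sizes. Among the elongation factor genes, 6 of 8 had their lowest mean CPM at 40 fL, and 4 had their highest at 75 fL. Among the initiation factor genes, 9 of 12 were highest at 40 fL, and all 12 had their lowest mean at 50 fL (5 genes) or 60 fL (7 genes). Among the synthetase genes, 15 of 20 were lowest at 50 fL and 11 were highest at 70 fL. On the other scales the synthetases were highest at 40 fL, as the initiation factors were: their summed share was 0.784% of TPM there and 0.694% at 70 fL, and 1.54% and 1.49% of counts.

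**Figure D2:**
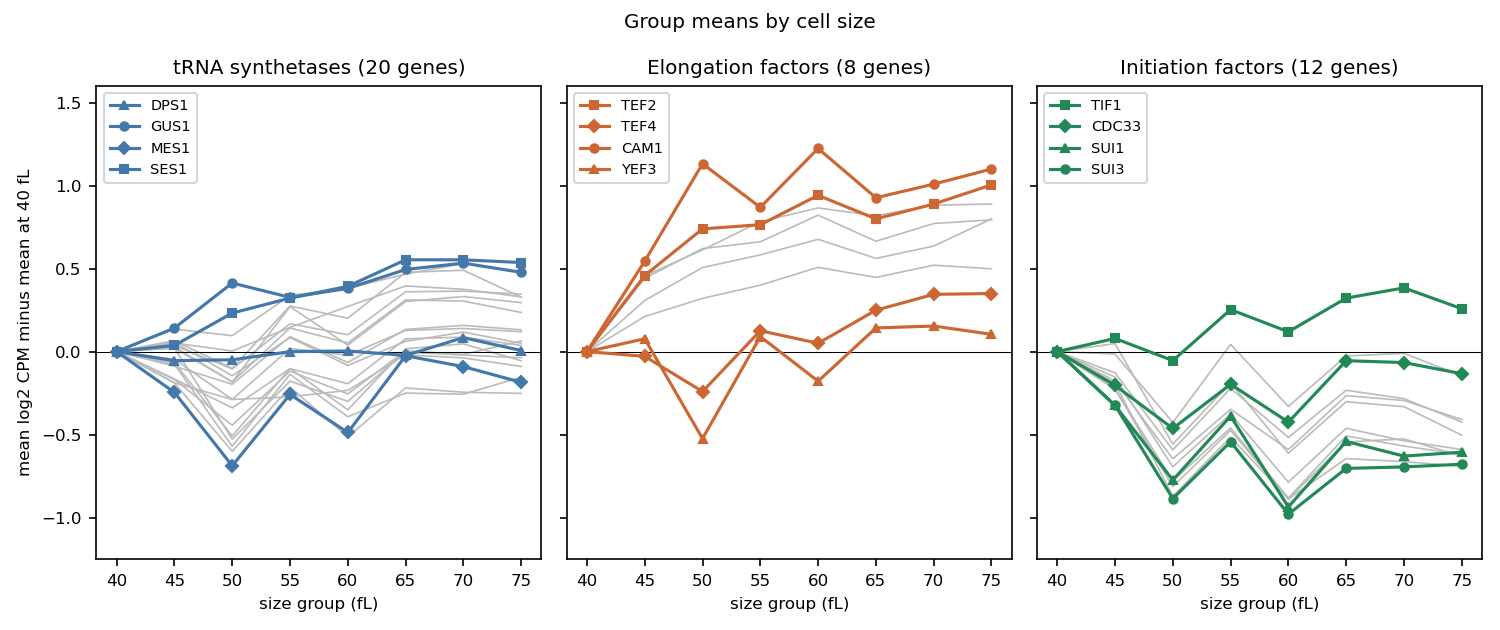
Group means of log2 CPM (TMM scaling) relative to 40 fL (y axis) for each gene against the size group (x axis, fL), 1 panel per class, with 4 genes per class drawn in color. CAM1 and TEF2 rise the most among elongation factors, SUI3 and SUI1 fall the most among initiation factors, and DPS1 stays nearly level among synthetases.

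From 40 to 75 fL, the smallest and largest groups, 7 of 8 elongation factor genes rose, where 31.0% of all genes rose, and none fell, where 30.2% of all genes fell. The rises were 1.10 ± 0.17 (SE, log2) for CAM1, 1.00 ± 0.12 for TEF2, 0.89 ± 0.11 for EFT2, 0.80 ± 0.11 for TEF1, 0.80 ± 0.11 for EFT1, 0.50 ± 0.10 for EFB1 and 0.35 ± 0.13 for TEF4, a second gene for eEF1B gamma. YEF3 did not pass, with 0.11 ± 0.17 (adjusted p = 0.598, edgeR), and stood at -0.17 under library totals and -0.33 on the TPM scale. The class median was 0.80. TEF1 and TEF2, and likewise EFT1 and EFT2, are near-identical copies that can share reads, so the 7 rises are not 7 separate measurements. Over the 3 classes, the 75 fL libraries lay wholly above the 40 fL libraries in 16 members, where 36.0% of all genes did so, and wholly below in 9, where 36.9% did. On the TPM scale 5 of these rises remained past the threshold (TEF1, TEF2, EFT1, EFT2 and CAM1), while EFB1 stood at 0.062 and TEF4 turned to -0.087, neither past the threshold. TEF4 also lost its call in edgeR without 40 fL replicate 1 (adjusted p = 0.144) and without 75 fL replicate 1 (adjusted p = 0.122).

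The eEF1A genes carried most of this RNA. TEF1 is YPR080W (chrXVI:700594-701970, + strand) and TEF2 is YBR118W (chrII:477671-479047, + strand), each with 1 coding exon. TEF1 had 11836, 10092 and 11045 at 40 fL and 14295, 13446 and 13027 at 45 fL in CPM (TMM-scaled counts relative to a fixed library total), and 15858, 14124 and 16883 at 50 fL and 17301, 15874 and 16134 at 55 fL. It then had 19883, 15553 and 17415 at 60 fL and 17212, 14744 and 16700 at 65 fL, and 14673, 18025 and 18703 at 70 fL and 20682, 18397 and 18279 at 75 fL. On this scale all 3 libraries at 40 fL were below every other library, and the highest was a library at 75 fL. On the TPM scale TEF1 in 40 fL replicate 1, at 10396, was above 45 fL replicate 1, at 10296. TEF2 had 5160, 4327 and 4690 at 40 fL, 7008, 6548 and 5918 at 45 fL, 8341, 6731 and 8678 at 50 fL and 7403, 8593 and 8071 at 55 fL in CPM. It had 10049, 8192 and 9009 at 60 fL, 8635, 7548 and 8476 at 65 fL, 7304, 9508 and 9574 at 70 fL and 10053, 9331 and 9012 at 75 fL. Here too the 40 fL libraries were the lowest, and the 75 and 40 fL groups did not overlap.

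The eEF2 genes followed the same course. EFT1 is YOR133W (chrXV:575098-577626, + strand) and EFT2 is YDR385W (chrIV:1243230-1245758, + strand), each with 1 coding exon. EFT1 had 1311, 1282 and 1351 at 40 fL, 1906, 1805 and 1651 at 45 fL, 2064, 1865 and 2144 at 50 fL and 1922, 2223 and 2103 at 55 fL in CPM, and 2612, 2011 and 2388 at 60 fL, 2202, 1903 and 2159 at 65 fL, 1943, 2432 and 2390 at 70 fL and 2502, 2123 and 2226 at 75 fL. EFT2 had 3896, 3852 and 3977 at 40 fL, 5669, 5540 and 4908 at 45 fL, 6105, 5584 and 6255 at 50 fL and 6754, 7072 and 6360 at 55 fL, and 7912, 6344 and 7191 at 60 fL, 7294, 6385 and 7025 at 65 fL, 5975, 8097 and 7725 at 70 fL and 7959, 6895 and 6906 at 75 fL. In both genes the 40 fL libraries lay below all others, and 70 fL replicate 1 was lower than its mates. EFB1, YAL003W at chrI:142174-143160, + strand, with 2 coding exons, was the elongation factor gene with the smallest range over the sizes. It had 931, 1100 and 1036 at 40 fL, 1184, 1239 and 1123 at 45 fL, 1202, 1405 and 1225 at 50 fL and 1360, 1384 and 1296 at 55 fL in CPM. It then had 1518, 1413 and 1423 at 60 fL, 1387, 1397 and 1388 at 65 fL, 1251, 1629 and 1537 at 70 fL and 1565, 1442 and 1327 at 75 fL. Its 40 fL libraries were all below its 75 fL libraries, and libraries from 60 fL upward overlapped.

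The copies of eEF1A, eEF2 and eIF4A are nearly identical, so their counts can share reads, and how the authors counted such reads was not given in the sources used here. TEF1 and TEF2 differ at 2 of 1377 coding bases, EFT1 and EFT2 at 4 of 2529, and TIF1 and TIF2 at 6 of 1188. Of the 30-base words in these genes, 95.5%, 95.2% and 90.3% were repeated elsewhere in the genome. A stretch of 60 coding bases, positions 169 to 228, is shown for TIF1 and TIF2 to illustrate how little separates them, with the 2 positions that differ in capitals.
TIF1, chrXI:555155-555214, + strand: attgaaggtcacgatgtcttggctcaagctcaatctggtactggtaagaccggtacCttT
TIF2, chrX:154464-154523, - strand: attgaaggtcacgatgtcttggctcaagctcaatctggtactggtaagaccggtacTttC

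Summed counts avoid this split. The eEF1A sum rose by 0.86 ± 0.11 from 40 to 75 fL (adjusted p = 6.57e-06, edgeR) and the eEF2 sum by 0.87 ± 0.11 (adjusted p = 4.95e-06, edgeR). The eIF4A sum had 0.10 ± 0.11 (adjusted p = 0.443, edgeR). Outside the coding sequence the copies differ: over the 250 bases upstream, identity was 53.5% for the eEF1A pair, 49.1% for the eEF2 pair and 43.8% for the eIF4A pair.

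The eEF1B gamma genes, CAM1 and TEF4, can be told apart by their reads, with 69.1% coding identity and few 30-base words repeated elsewhere in the genome (0.492% and 0.496%). CAM1 is YPL048W (chrXVI:464401-465648, + strand) with 1 coding exon, and TEF4 is YKL081W (chrXI:282891-284455, + strand) with 2. CAM1 had the largest range of all elongation factor genes. CAM1 had 245, 227 and 230 at 40 fL, 397, 356 and 282 at 45 fL, 555, 392 and 620 at 50 fL and 355, 551 and 400 at 55 fL in CPM. It had 526, 558 and 557 at 60 fL, 424, 423 and 491 at 65 fL, 398, 513 and 512 at 70 fL and 485, 514 and 506 at 75 fL. The 3 libraries at 40 fL were the lowest of all 24, the 60 fL libraries lay together near the top, and 50 fL replicate 2 was well below its mates. TEF4 had 1126, 1401 and 1404 at 40 fL, 1157, 1306 and 1381 at 45 fL, 985, 1322 and 1031 at 50 fL and 1512, 1229 and 1549 at 55 fL in CPM. It had 1484, 1203 and 1377 at 60 fL, 1612, 1447 and 1595 at 65 fL, 1491, 1703 and 1787 at 70 fL and 1834, 1558 and 1603 at 75 fL. TEF4 was low in 50 fL replicates 1 and 3, the libraries in which CAM1 was high, and its 40 and 75 fL libraries did not overlap.

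The TPM ratio of TEF4 to CAM1 was 5.66 ± 0.896 at 40 fL, 2.29 ± 0.962 at 50 fL, 2.50 ± 0.336 at 60 fL and 3.35 ± 0.403 at 75 fL (SD, n = 3). The ratio of TEF1 to TEF2 was 2.33 ± 0.0309 at 40 fL and 2.02 ± 0.0436 at 75 fL, that of EFT2 to EFT1 was 2.97 ± 0.0312 and 3.18 ± 0.0726, and that of TIF1 to TIF2 was 1.43 ± 0.0644 and 1.89 ± 0.0332. In each of the 4 pairs the 3 ratios at 75 fL did not overlap the 3 at 40 fL. The two-sided exact permutation test gave p = 0.1 for each pair, the smallest value that 3 libraries against 3 allow (adjusted p = 0.1 over the 4 pairs), so none of these differences could pass.

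**Figure D3:**
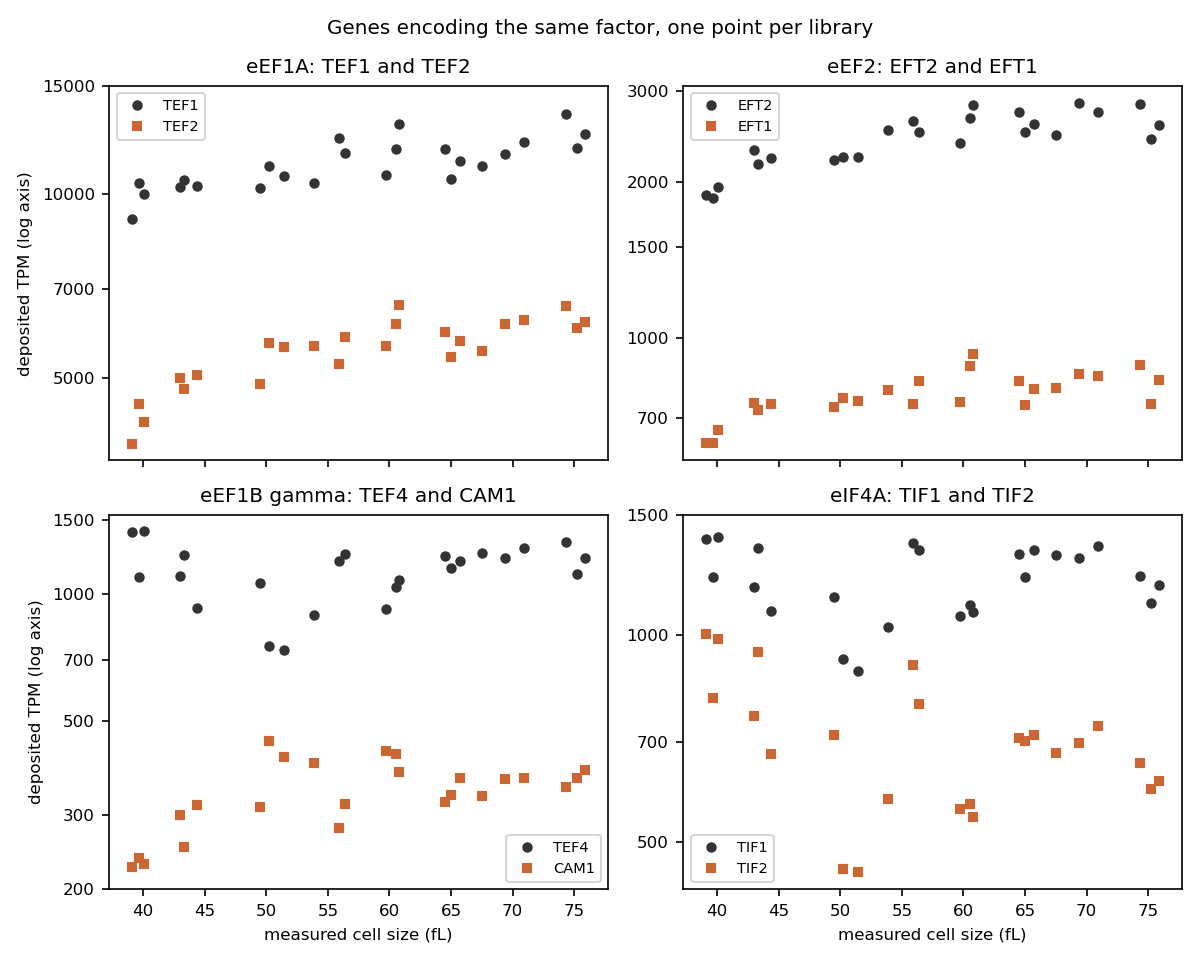
Deposited TPM (y axis, log scale) against measured cell size (x axis, fL) for the pairs of genes that encode the same factor, with 1 point per library. CAM1 lies far below TEF4 at the smallest sizes and closer to it at 50 and 60 fL. The other pairs change less in ratio from 40 to 75 fL. Among them the ratio of TIF1 to TIF2 changes the most, from 1.43 to 1.89.

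The promoters of the eEF1B gamma genes are shown because the ratio of the pair varied with size; the 250 bases upstream had 41.4% identity. Capitals mark AAAATTTT, which is in the TEF4 window and not in the CAM1 window. The last 50 bases of each are the start of the coding sequence.
CAM1, chrXVI:464151-464450, + strand: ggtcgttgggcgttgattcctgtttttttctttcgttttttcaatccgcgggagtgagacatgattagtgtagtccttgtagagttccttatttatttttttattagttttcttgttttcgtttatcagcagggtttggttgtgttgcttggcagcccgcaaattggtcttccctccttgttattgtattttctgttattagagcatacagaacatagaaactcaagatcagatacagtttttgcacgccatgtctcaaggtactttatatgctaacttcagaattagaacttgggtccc
TEF4, chrXI:282641-282940, + strand: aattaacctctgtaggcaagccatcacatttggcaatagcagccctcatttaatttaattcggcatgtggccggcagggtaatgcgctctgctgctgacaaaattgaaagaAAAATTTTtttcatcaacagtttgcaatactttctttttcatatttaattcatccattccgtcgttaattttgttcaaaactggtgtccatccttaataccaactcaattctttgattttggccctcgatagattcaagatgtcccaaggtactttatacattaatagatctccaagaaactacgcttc

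Introns of EFB1 and TEF4 hold the small nucleolar RNA genes SNR18 and SNR38. Reads from these genes were not separated here, and the lengths behind the deposited TPM, 621 and 1239 bases, equal the coding lengths.

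Initiation factor genes went the other way. From 40 to 75 fL, 9 of 12 fell, where 30.2% of all genes did, and TIF1 rose, with a class median of -0.55. The falls covered eIF1 (SUI1, -0.60 ± 0.18 SE, log2), which helps select the start codon, and all 3 subunits of eIF2, which carries the initiator tRNA: SUI2 with -0.63 ± 0.20, SUI3 with -0.68 ± 0.18 and GCD11 with -0.41 ± 0.15. The 4 members that encode eIF3, a scaffold on the small ribosomal subunit, fell as well: PRT1 by 0.69 ± 0.19, TIF34 by 0.64 ± 0.21, NIP1 by 0.59 ± 0.18 and RPG1 by 0.51 ± 0.20. TIF4631, for the eIF4G scaffold, had -0.43 ± 0.16, while CDC33, for the cap-binding protein eIF4E, did not pass (-0.14 ± 0.12, adjusted p = 0.347, edgeR). The 9 falls held under library totals, where 45.9% of all genes fell. They also held on the TPM scale, where 11 initiation factor genes and 3524 of all 6402 genes fell. The calls of 3 of these 9 falls were near the threshold and were lost when 1 library was left out. In edgeR, leaving out 40 fL replicate 2 or 3 or 75 fL replicate 2 or 3 gave GCD11 an adjusted p of 0.0561, 0.0741, 0.0752 or 0.0570, RPG1 one of 0.101, 0.0873, 0.0910 or 0.0877, and TIF4631 one of 0.0663, 0.0786, 0.0721 or 0.0633.

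SUI3 had the largest range in this class. SUI3 is YPL237W (chrXVI:100496-101353, + strand), with 1 coding exon. SUI3 had 197, 228 and 216 at 40 fL, 168, 148 and 199 at 45 fL, 93.3, 172 and 96.4 at 50 fL and 172, 115 and 159 at 55 fL in CPM. It had 108, 106 and 110 at 60 fL, 139, 131 and 124 at 65 fL, 127, 134 and 134 at 70 fL and 146, 134 and 122 at 75 fL. Libraries at 40 fL were high and those at 60 fL uniformly low, and the 40 and 75 fL groups did not overlap. At 50 and 55 fL the replicates disagreed, with 50 fL replicate 2 near the 45 fL level and 55 fL replicate 2 near the 60 fL level. PRT1 showed the same pattern, with 875, 976 and 956 at 40 fL, 404, 757 and 435 at 50 fL and 801, 491 and 710 at 55 fL, and 515, 505 and 496 at 60 fL and 639, 536 and 568 at 75 fL in CPM.

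The same libraries stood out for the class as a whole. The mean log2 CPM of the 12 initiation factor genes relative to 40 fL was -0.90, -0.17 and -0.82 in the 3 libraries at 50 fL and -0.039, -0.63 and -0.19 in those at 55 fL. A list of 20 ribosome biogenesis genes moved with it, at -1.87, -0.35 and -1.70 at 50 fL and -0.22, -1.48 and -0.39 at 55 fL. The synthetase mean moved the same way by less, at -0.34, -0.088 and -0.24 at 50 fL and 0.15, -0.12 and 0.084 at 55 fL. All 20 biogenesis genes fell from 40 to 75 fL, where 30.2% of all genes did, with a median of -1.14 (edgeR). The same 20 of 20 fell under library totals, on the TPM scale and without the 5 libraries that stood apart. Of 138 ribosomal protein genes 135 rose, where 31.0% of all genes did, with a median of 1.07. On the TPM scale 124 rose and 2 fell, where 933 and 3524 of all 6402 genes did. Without the 5 libraries the initiation median from 40 to 75 fL was -0.62 and the elongation median 0.82.

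**Figure D4:**
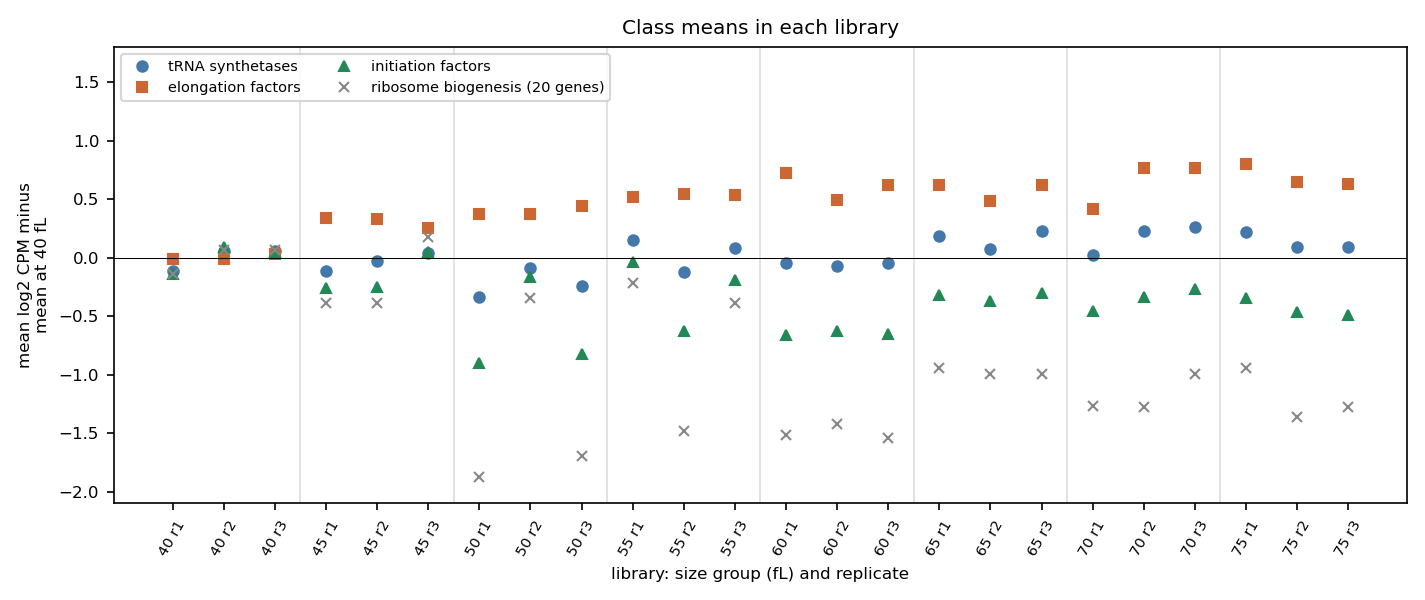
Mean log2 CPM of each class relative to its 40 fL mean (y axis) in each of the 24 libraries (x axis, size group and replicate), with a list of 20 ribosome biogenesis genes in grey. Initiation factors and ribosome biogenesis genes are both high in 50 fL replicate 2 and low in 55 fL replicate 2 compared with their replicate mates. The synthetases differ in the same direction, by less.

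Ratios between subunits of a complex were compared at the smallest and largest sizes. On the TPM scale the ratio of SUI3 to SUI2 was 0.771 ± 0.0399 at 40 fL and 0.741 ± 0.0289 at 75 fL, and its group means lay between 0.674 and 0.771 at all sizes. GCD11 to SUI2 was 1.19 ± 0.0820 at 40 fL and 1.37 ± 0.0592 at 75 fL. Within eIF3, the 40 and 75 fL ratios to RPG1 were 1.28 ± 0.0191 and 1.17 ± 0.0196 for TIF34, 1.22 ± 0.0641 and 1.15 ± 0.0134 for NIP1, and 1.19 ± 0.0690 and 1.05 ± 0.0321 for PRT1 (SD, n = 3). The 40 and 75 fL libraries overlapped for SUI3 to SUI2 and did not overlap for the other 4 ratios. These ratios were not tested.

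TIF1, a gene for eIF4A, was the only initiation factor gene that rose under TMM. The other eIF4A gene, TIF2, had -0.15 from 40 to 75 fL, close to CDC33 with -0.14, and on the TPM scale both fell, by 0.58 and 0.57. TIF1 is YKR059W (chrXI:554987-556174, + strand) and TIF2 is YJL138C (chrX:153504-154691, - strand). TIF1, with the smallest range in its class, had 1193, 1322 and 1329 at 40 fL, 1300, 1330 and 1429 at 45 fL, 1137, 1355 and 1216 at 50 fL and 1651, 1353 and 1589 at 55 fL in CPM. It had 1426, 1337 and 1409 at 60 fL, 1647, 1465 and 1699 at 65 fL, 1494, 1736 and 1795 at 70 fL and 1616, 1489 and 1491 at 75 fL. TIF1 had 0.26 ± 0.10 from 40 to 75 fL, but the direction turned under library totals (-0.016) and on the TPM scale (-0.18), and the call was lost in edgeR without 40 fL replicate 1 (adjusted p = 0.112) or 75 fL replicate 1 (adjusted p = 0.102). TIF2 had 795, 960 and 944 at 40 fL, 804, 863 and 1007 at 45 fL, 579, 852 and 601 at 50 fL and 1096, 759 and 947 at 55 fL in CPM. It had 718, 701 and 721 at 60 fL, 887, 843 and 912 at 65 fL, 769, 934 and 982 at 70 fL and 862, 798 and 774 at 75 fL. The 40 and 75 fL libraries of TIF2 overlapped, and TIF2 was lowest in 50 fL replicates 1 and 3.

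Synthetase genes changed less, and their direction from 40 to 75 fL depended on the scaling. With TMM, 8 of 20 rose and 0 fell, with a median of 0.092, where 31.0% of all genes rose and 30.2% fell. Library totals gave 2 that rose and 6 that fell, with a median of -0.18, where 19.1% of all genes rose and 45.9% fell. TPM gave 0 that rose and 12 that fell, with a median of -0.34, where 933 of all 6402 genes rose and 3524 fell, so that the share of synthetase genes that fell was near that of all genes. Under TMM the rises were SES1 (0.54 ± 0.09 SE, log2), DED81 for the asparaginyl enzyme (0.48 ± 0.09), GUS1 for the glutamyl enzyme (0.48 ± 0.12), THS1 for the threonyl enzyme (0.35 ± 0.09), ILS1 for the isoleucyl enzyme (0.33 ± 0.10), CDC60 for the leucyl enzyme (0.33 ± 0.09), GRS1 for the glycyl enzyme (0.30 ± 0.09) and VAS1 for the valyl enzyme (0.24 ± 0.09). Only SES1 and DED81 also rose under library totals (0.26 and 0.20), and on the TPM scale their changes were 0.10 and 0.041 and did not pass. ILS1 lost its call in edgeR without 40 fL replicate 1 (adjusted p = 0.0563), and VAS1 without 40 fL replicate 1 (adjusted p = 0.115) or 75 fL replicate 1 (adjusted p = 0.118). Of the genes with TGACTC in the window, 3 of 8 rose under TMM, ILS1, THS1 and VAS1. Of the other 12 synthetase genes, 5 rose.

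**Figure D5:**
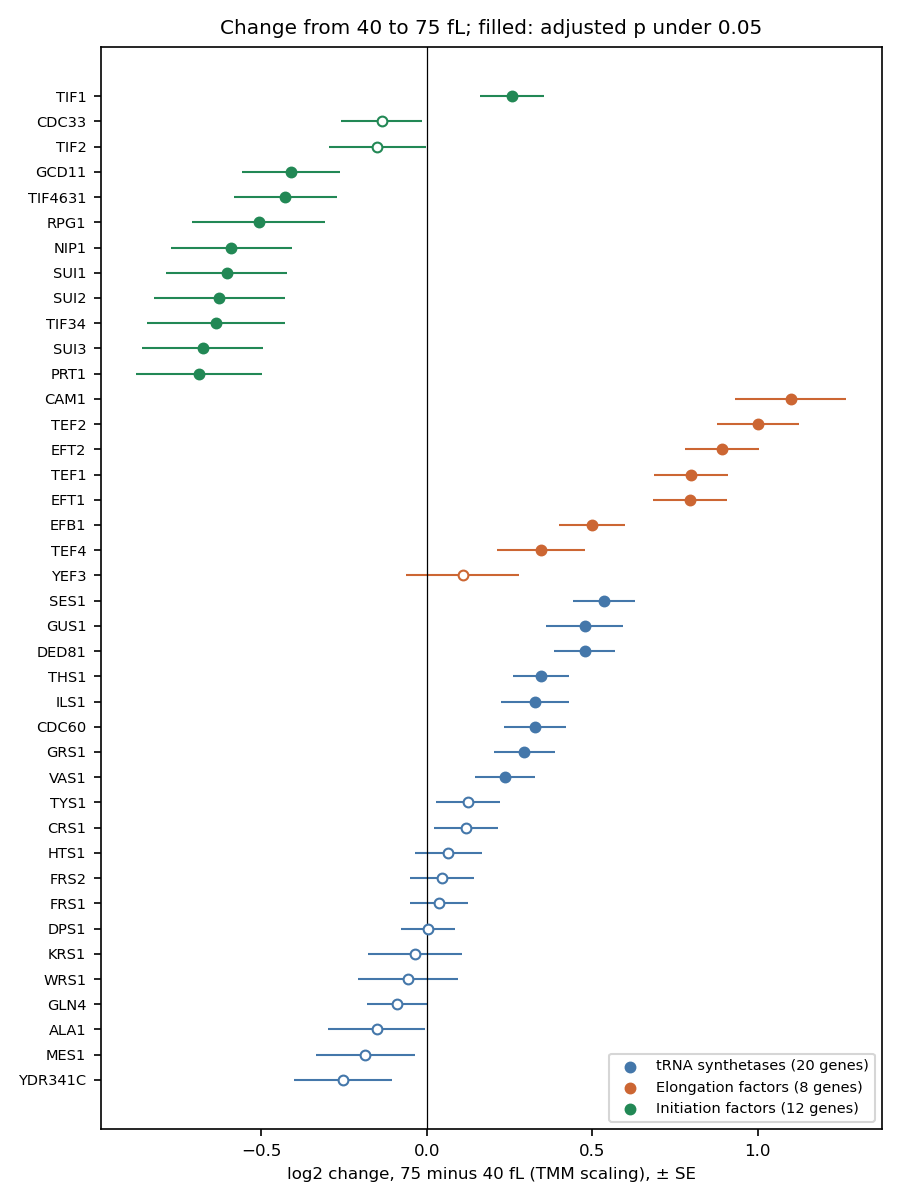
Log2 change from 40 to 75 fL under TMM scaling (x axis, ± SE) for the 40 genes (y axis), grouped by class. Filled points passed an adjusted p under 0.05: 7 elongation factor genes to the right of 0, 9 initiation factor genes to the left and TIF1 to the right, and 8 synthetase genes to the right. The direction for the synthetases and TIF1 turned on the TPM scale for GRS1, ILS1, CDC60, THS1, VAS1 and TIF1, and likewise for TEF4.

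MES1, for the methionyl enzyme, had the largest range among the synthetases. MES1 is YGR264C (chrVII:1019598-1021853, - strand), and DPS1 is YLL018C (chrXII:109902-111575, - strand). MES1 had 546, 625 and 624 at 40 fL, 454, 508 and 553 at 45 fL, 321, 457 and 347 at 50 fL and 620, 376 and 534 at 55 fL in CPM. It had 415, 423 and 441 at 60 fL, 608, 553 and 602 at 65 fL, 510, 580 and 596 at 70 fL and 575, 505 and 500 at 75 fL. Its libraries were high at 40 and 65 fL and low at 50 and 60 fL, except for 50 fL replicate 2, the 55 fL libraries spanned both levels, and the 40 and 75 fL groups overlapped. DPS1 had the smallest range, with 585, 673 and 661 at 40 fL, 603, 615 and 626 at 45 fL, 594, 649 and 608 at 50 fL and 649, 616 and 650 at 55 fL in CPM. It had 633, 638 and 649 at 60 fL, 616, 590 and 682 at 65 fL, 608, 729 and 698 at 70 fL and 640, 650 and 633 at 75 fL. All size groups of DPS1 overlapped the 40 fL group. GUS1 and MES1 encode synthetases that bind the same cofactor protein, Arc1, and the TPM ratio of GUS1 to MES1 was 1.35 ± 0.0553 at 40 fL, 2.98 ± 0.828 at 50 fL and 2.14 ± 0.110 at 75 fL (SD, n = 3). The subunits of the phenylalanyl enzyme stayed closer, with FRS1 to FRS2 at 0.992 ± 0.0413, 0.867 ± 0.00769 and 0.984 ± 0.0368 at those sizes.

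From 40 to 50 fL, 8 of the 40 genes rose, where 32.8% of all genes rose, and 21 fell, where 24.2% fell (edgeR). Of the 8 elongation factor genes 6 rose, with CAM1 at 1.16 ± 0.17 (SE, log2), TEF2 at 0.74 ± 0.12, EFT1 at 0.62 ± 0.11, EFT2 at 0.61 ± 0.11, TEF1 at 0.51 ± 0.11 and EFB1 at 0.32 ± 0.10, although EFB1 turned to -0.066 on the TPM scale and 4 genes remained called there, where 886 of all 6402 genes rose. TEF4 was not called with TMM (-0.24, adjusted p = 0.133, edgeR) and fell under library totals (-0.48, adjusted p = 0.00466, edgeR) and on the TPM scale (-0.63, adjusted p = 0.00139, limma). YEF3 fell by 0.49 ± 0.17, a call lost in edgeR without 40 fL replicate 3 (adjusted p = 0.0561), 50 fL replicate 1 (0.113 as adjusted p) or 50 fL replicate 3 (0.0952 as adjusted p). Leaving out 40 fL replicate 1 gave EFB1 an adjusted p of 0.0553 in edgeR. Of the initiation factor genes 11 of 12 fell, led by SUI3 (-0.83 ± 0.18), PRT1 (-0.81 ± 0.19), TIF34 (-0.74 ± 0.21) and SUI1 (-0.72 ± 0.18), and TIF1 had -0.052 ± 0.10. RPG1 and TIF2 each lost the call in edgeR without 40 fL replicate 2 or 3 or 50 fL replicate 1 or 3, with adjusted p between 0.0730 and 0.198.

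Among the synthetases, 9 fell and 2 rose from 40 to 50 fL with TMM, where 24.2% of all genes fell and 32.8% rose. On the TPM scale 18 fell and 0 rose, where 3095 of all 6402 genes fell and 886 rose. With TMM the largest falls were in MES1 (-0.67 ± 0.15), YDR341C for the arginyl enzyme (-0.58 ± 0.15), ALA1 for the alanyl enzyme (-0.55 ± 0.15) and KRS1 for the lysyl enzyme (-0.51 ± 0.14). The rises were GUS1 (0.42 ± 0.12) and SES1 (0.24 ± 0.09), and SES1 turned to -0.014 under library totals and -0.15 on the TPM scale. Calls of GUS1 (without 50 fL replicate 3, adjusted p = 0.0518 in edgeR), SES1, WRS1, CRS1 and GLN4 were also lost when 1 library was left out. In edgeR, SES1 had an adjusted p of 0.112, 0.0841, 0.0788 and 0.182 without replicate 1 or 2 of the 40 fL group and replicate 1 or 3 of the 50 fL group, in that order. WRS1 had 0.0851 and 0.0689 without 50 fL replicates 1 and 3, CRS1 had 0.0558, 0.0678 and 0.0954 without 40 fL replicates 2 and 3 and 50 fL replicate 1, and GLN4 had 0.0533 and 0.0626 without 40 fL replicate 3 and 50 fL replicate 1, as adjusted p in edgeR. Relative to the median of all genes, the synthetase median was -0.25, -0.24 and -0.25 under TMM, library totals and TPM.

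At larger sizes fewer genes were called. The synthetase median was of similar size in each step, at -0.19 from 40 to 50 fL, 0.17 from 50 to 60 fL and 0.19 from 60 to 75 fL. From 50 to 60 fL, 0 of the 40 genes were called by edgeR in either direction, where 3.98% of all genes rose and 6.11% fell. An unadjusted p under 0.05 in edgeR was found for 9 members and for 1957 of all 6402 genes. DESeq2 called 10 rises, and its share over all genes was not counted. The largest difference was YEF3 with 0.32 ± 0.17 (SE, log2), followed by ILS1 with 0.30 ± 0.10. Without the 5 libraries that stood apart, 30 of the 40 rose in this comparison, where 13.5% of all genes did, among them 16 synthetase and 10 initiation factor genes. Of the initiation factor genes then called, 5 had stood below 0 with all libraries, such as PRT1, at 0.31 and -0.077. Those libraries were picked by distance from their mates, so leaving them out favors calls. From 60 to 75 fL, 0 of the 40 were called by edgeR, where 2.00% of all genes rose and 2.01% fell. An unadjusted p under 0.05 in edgeR was found for 6 members and for 1153 of all 6402 genes. DESeq2 also called 0, and 15 rose without the 5 libraries, where 9.44% of all genes did. The class medians from 60 to 75 fL were 0.19 for synthetases, 0.040 for elongation factors and 0.20 for initiation factors. The comparisons share libraries with one another, so their values are given side by side only.

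Other genes of the translation pathway, listed by function, were measured in the same fit. Of 16 further initiation genes, 6 fell and 1 rose from 40 to 75 fL, with a median of -0.22, where 30.2% of all genes fell and 31.0% rose. With TMM the share that fell was near that of all genes. Under library totals 12 of the 16 fell, where 45.9% of all genes did, and 0 rose. On the TPM scale 14 fell and 0 rose, where 3524 of all 6402 genes fell. From 40 to 50 fL with TMM, 11 fell and 1 rose, where 24.2% of all genes fell and 32.8% rose. From 40 to 75 fL with TMM, DED1, an RNA helicase of initiation, had -0.94 ± 0.23 (SE, log2), TIF5 (eIF5) -0.71 ± 0.19 and FUN12 (eIF5B) -0.58 ± 0.16. The gene that rose from 40 to 75 fL was TIF4632, which encodes a second eIF4G, with 0.28 ± 0.08. Its change was 0.0099 under library totals and -0.15 on the TPM scale, not past the threshold in either. Its mean CPM was 233 ± 9.96 at 40 fL and 283 ± 12.4 at 75 fL (SD, n = 3).

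Of 11 tested genes for further elongation, termination and factor-modifying proteins, 7 fell and 2 rose from 40 to 75 fL. The median of the 11 was -0.53, and of all genes 30.2% fell and 31.0% rose. HEF3, a second eEF3 gene, fell by 1.34 ± 0.12 (SE, log2), from 35.5 ± 3.09 CPM at 40 fL to 14.0 ± 0.0450 at 75 fL (SD, n = 3), while YEF3 did not pass. ANB1, an eIF5A gene, had 1.59 ± 0.32, with 28.3 ± 6.77 CPM at 40 fL, 220 ± 57.1 at 65 fL and 85.3 ± 12.3 at 75 fL. DYS1, which acts in the hypusine modification of eIF5A, had 0.41 ± 0.10 under TMM and -0.024 on the TPM scale. HYP2, the other eIF5A gene, is listed at 0 counts in all 24 libraries and was not tested. Of 4 genes of general amino acid control, GCN2, which phosphorylates eIF2, fell by 0.29 ± 0.08 and GCN20 by 0.49 ± 0.14. GCN4 had 0.26 ± 0.12 (adjusted p = 0.0578, edgeR) under TMM and -0.18 on the TPM scale, and its mean CPM was 722 ± 30.2 at 40 fL and 865 ± 36.8 at 75 fL (SD, n = 3).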

How the data were processed

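RNA was measured in 24 libraries of 8 size groups. Raw counts per feature were deposited by the authors, made with featureCounts of the Subread package on build R64, per the submitters' processing notes. The deposited TPM values are those counts scaled by feature length within each library. The aligner, software versions, strand setting and treatment of multi-mapping reads were not given in the sources used here. Counts of near-identical copies are uncertain for that reason.

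Libraries were grouped by the nearest 5 fL, with the 67.5 fL library in the 70 fL group as replicate 1, and replicates were numbered in record order. Counts were fitted with edgeR 4.0.16 (R 4.3.3): filterByExpr, TMM factors (0.929 to 1.17), 1 coefficient per size and the robust quasi-likelihood F test, with Benjamini-Hochberg adjustment over the 6402 genes tested and a threshold of 0.05. Each SE was taken as the size of the log2 change over the root of F. The common biological coefficient of variation was 0.179, and replicate counts differed beyond sampling noise (chi-square over degrees of freedom of 9.19 to 262), so none was a copy. TPM was tested as log2(TPM + 1) with limma 3.58.1. A two-sided exact permutation test compared copy ratios. DESeq2 1.42.0, limma-voom, other scalings and filters, summed copies and left-out libraries were alternatives. The code was tested on simulated data. Sequences and identities came from RefSeq R64 with Biopython 1.88. Words searched in promoters were kept after several had been tried.

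The members, lists and tests were chosen with earlier results of these data known. By the rule used, all 40 members could be named, with values in every library for those with the largest and smallest range in each class and for the duplicated factors, and up to 4 genes per other list by adjusted p over the sizes. PRT1's library values, and list genes singled out for a small count, were picked with their values in view.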

Additional observations from a re-analysis of the deposited data

How the results depend on the processing

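Each gene had at least 1488 counts in every library. Changes are shares of RNA, so their sign depends on the scaling. From 40 to 75 fL, the 16 rises and 9 falls became 8 and 17 with library totals and 5 and 23 with deposited TPM (pseudocount 1 or 0.1), and falls numbered 14 without the 5 libraries that stood apart. Of all genes, 31.0% rose and 30.2% fell with TMM, and 19.1% and 45.9% with library totals. With TPM (pseudocount 1), 933 of all 6402 genes rose and 3524 fell. Summing near-identical copies gave 13 rises and 9 falls from 40 to 75 fL, and 6 rises and 20 falls from 40 to 50 fL. From 40 to 50 fL, the 8 rises became 5 with library totals and 4 with TPM, and the 21 falls became 32 with TPM. Of all genes, 32.8% rose and 24.2% fell with TMM, and 886 and 3095 of 6402 did with TPM. From 50 to 60 fL, the 0 rises became 4 with RLE factors, 2 with upper quartile factors, 10 with DESeq2, 1 with limma-voom, 5 without a filter, 2 with the 67.5 fL library in the 65 fL group and 30 without the 5 libraries. Of all genes, 3.98% rose with TMM and 13.5% without the 5 libraries. Shares over all genes were not counted for the other settings in that list. From 60 to 75 fL the 0 rises became 15 without the 5 libraries, where 9.44% of all genes rose. Leaving out 1 library at a time gave 29 to 39 genes changed over all sizes, 12 to 16 rises and 6 to 9 falls from 40 to 75 fL, 6 to 8 rises and 15 to 26 falls from 40 to 50 fL, 0 to 1 rises and 0 falls from 50 to 60 fL, and 0 of either from 60 to 75 fL.

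The class medians from 40 to 75 fL under library totals and TPM were -0.18 and -0.34 for synthetases (0.092 with TMM), 0.52 and 0.36 for elongation factors (0.80) and -0.82 and -0.98 for initiation factors (-0.55). From 40 to 50 fL they were -0.44 and -0.57 for synthetases (-0.19), 0.31 and 0.17 for elongation factors (0.56) and, with TPM, -1.05 for initiation factors (-0.64). Relative to the median of all genes, these shifts were under 0.05.

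Among genes past the threshold under TMM or under the alternative, signs turned as follows. From 40 to 75 fL with TPM, the change was -0.43 for DPS1, -0.32 for CRS1, -0.14 for GRS1, -0.37 for HTS1, -0.11 for ILS1, -0.11 for CDC60, -0.40 for FRS1, -0.39 for FRS2, -0.090 for THS1, -0.31 for TYS1, -0.20 for VAS1, -0.087 for TEF4 and -0.18 for TIF1. With library totals it was -0.27 for DPS1, -0.24 for FRS1, -0.038 for VAS1 and -0.016 for TIF1. From 40 to 50 fL with TPM it was -0.29 for DED81, -0.38 for CDC60, -0.15 for SES1 and -0.066 for EFB1, and with library totals -0.25 for CDC60 and -0.014 for SES1. From 50 to 60 fL without the 5 libraries it was 0.25 for SUI2, 0.24 for SUI3, 0.31 for PRT1, 0.30 for TIF34 and 0.28 for RPG1. Signs also turned for genes that passed in neither, such as YEF3 from 40 to 75 fL. The cause was not tested.

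No paired analysis was possible because the labels give the libraries no replicate numbers that link different sizes.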

Other observations

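Separate genes for mitochondrial synthetases and translation factors, which serve the ribosomes of the organelle, were counted apart from the 40 members. Of 13 genes for mitochondrial synthetases, 5 rose and 0 fell from 40 to 75 fL in edgeR with TMM scaling, with a median log2 change of 0.19, but 1 rose and 2 fell under library totals, and 0 rose and 5 fell on the deposited TPM scale. Of all genes, 31.0% rose and 30.2% fell with TMM, and 19.1% and 45.9% did so with library totals; with TPM 933 of 6402 rose and 3524 fell, so the share of these 13 that rose with TMM was near that of all genes. ISM1, for the isoleucyl enzyme, had 0.52 ± 0.08 (SE), 0.24 under library totals and 0.082 with TPM. NAM2, for the leucyl enzyme, had 0.39 ± 0.11, 0.12 and -0.048 under the same 3 scalings.

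Of 6 genes for mitochondrial translation factors, 4 rose from 40 to 75 fL with TMM scaling, where 31.0% of all genes rose. With library totals 2 rose, where 19.1% of all genes did. With TPM 1 rose and 2 fell, where 933 and 3524 of all 6402 genes did. MEF2, a mitochondrial elongation factor, had 1.70 ± 0.32 (SE, log2), 1.43 under library totals and 1.17 with TPM. MRF1, a mitochondrial release factor, had 0.59 ± 0.11 with TMM, 0.32 under library totals and 0.15 with TPM. TUF1, the organelle's counterpart of eEF1A, had 0.43 ± 0.15 with TMM and -0.018 with TPM.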
